A study of Mus musculus with 11 samples.

Results

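10 genes that mark blood vessel endothelium or let leukocytes hold on to it were followed in mouse neuroblastomas 16 h after a single dose of CBL0137, panobinostat, both drugs or vehicle. They were chosen by name from 24411 genes in the table: the junction and surface genes Pecam1, Cdh5, Egfl7 and Plvap, the receptors Kdr, Tek and Tie1, the haemostasis gene Vwf, and the adhesion molecules Vcam1 and Icam1. All 10 passed the filter on low values. The tumours came from mice homozygous for Th-MYCN, a transgene that places MYCN under the tyrosine hydroxylase promoter and gives rise to tumours of the sympathetic lineage. Each mouse was treated when its tumour reached about 5 mm, and the tumour was flash frozen for total RNA sequencing.

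The groups were CBL0137 at 40 mg/kg given intravenously (3 tumours), panobinostat at 5 mg/kg given intraperitoneally (2 tumours, replicates 1 and 3), the same doses of both drugs together (3 tumours, called combination here), and an intraperitoneal vehicle (3 tumours). Replicates were tumours from separate mice. Panobinostat inhibits histone deacetylases, and CBL0137, of the curaxin class, intercalates into DNA and locks the chaperone complex FACT onto it. There was no intravenous vehicle group, so the route of injection and CBL0137 itself cannot be told apart. The third panobinostat tumour was not analysed here.

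Endothelial cells line every vessel of a tumour and are held together by VE-cadherin and PECAM1. VEGF receptors and the TIE receptors on their surface control sprouting and vessel stability. Inflammatory cytokines make them display VCAM1 and ICAM1, which catch leukocytes by their integrins. VCAM1 is also made by some macrophages and stromal cells, and ICAM1 by many cell types that meet cytokines. PECAM1 is also made by leukocytes, and PECAM1 and von Willebrand factor by platelets and their precursors. In whole tumour RNA, more endothelial cells and more RNA of a gene per endothelial cell cannot be told apart.

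Levels are TPM, relative transcript abundances scaled to gene length and to a fixed total, so that a gene's TPM can rise when other transcripts fall, and the sequencing depth behind them is unknown. Differences are log2 changes of TPM + 1, which understate the change of genes at low TPM. They were tested with limma's moderated test over 15497 genes, with Benjamini-Hochberg adjustment and a threshold of 0.05; a gene is said to have risen or fallen only past it. The neuroblast marker Th was present in all 11 libraries, between 99.6 and 416 TPM. 4 libraries carried transcripts of other tissues or lymphocytes: Combination replicate 2 summed to 5286 TPM over adrenal cortex genes, Panobinostat replicate 3 to 9957 TPM over skeletal muscle genes, Vehicle replicate 2 to 471.6 TPM over kidney genes and CBL0137 replicate 3 to 160.3 TPM over B cell genes. Smaller muscle sums, 626 and 788 TPM, were found in CBL0137 replicate 2 and Combination replicate 1. Combination replicate 1 also summed to 66.6 TPM over B cell genes and 81.8 TPM over T cell genes, and was kept. The T cell sum of CBL0137 replicate 3 was 68.6 TPM. This CBL0137 library was the highest of its group for all 10 genes, so leaving it out lowers the CBL0137 levels. Counts of genes called against vehicle are given for all libraries and, where they differ, without the first 4. Shares of all genes called are given for the main fit only. A count that changes in another fit may therefore reflect a change over all genes.

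All 10 genes were higher in combination tumours than in vehicle tumours, by 2.78 (Kdr) to 3.82 (Plvap) on the log2 scale, and all 10 passed the test. In the same comparison 35.9% of all genes tested rose and 30.1% fell. All 10 also rose after panobinostat alone, by 1.29 (Kdr) to 2.62 (Vwf), where 25.5% of all genes rose and 16.9% fell. Every combination library was above every vehicle library for all 10 genes, as for 38.4% of all genes, and every panobinostat library likewise, as for 37.1%. After CBL0137 alone 5 of the 10 rose, namely Pecam1, Tie1, Egfl7, Vcam1 and Icam1, against 4.99% of all genes, and the other 5 had positive changes of 0.63 to 1.58 that did not pass. The median change of the 10 genes was 3.29 in combination tumours, 2.15 after panobinostat and 1.33 after CBL0137, against medians of 0.08, 0.10 and −0.01 over all genes. Without the 4 libraries with foreign transcripts, 10 genes remained called for the combination and 9 for panobinostat, but 2 (Egfl7 and Vcam1) for CBL0137.

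**Figure D1:**
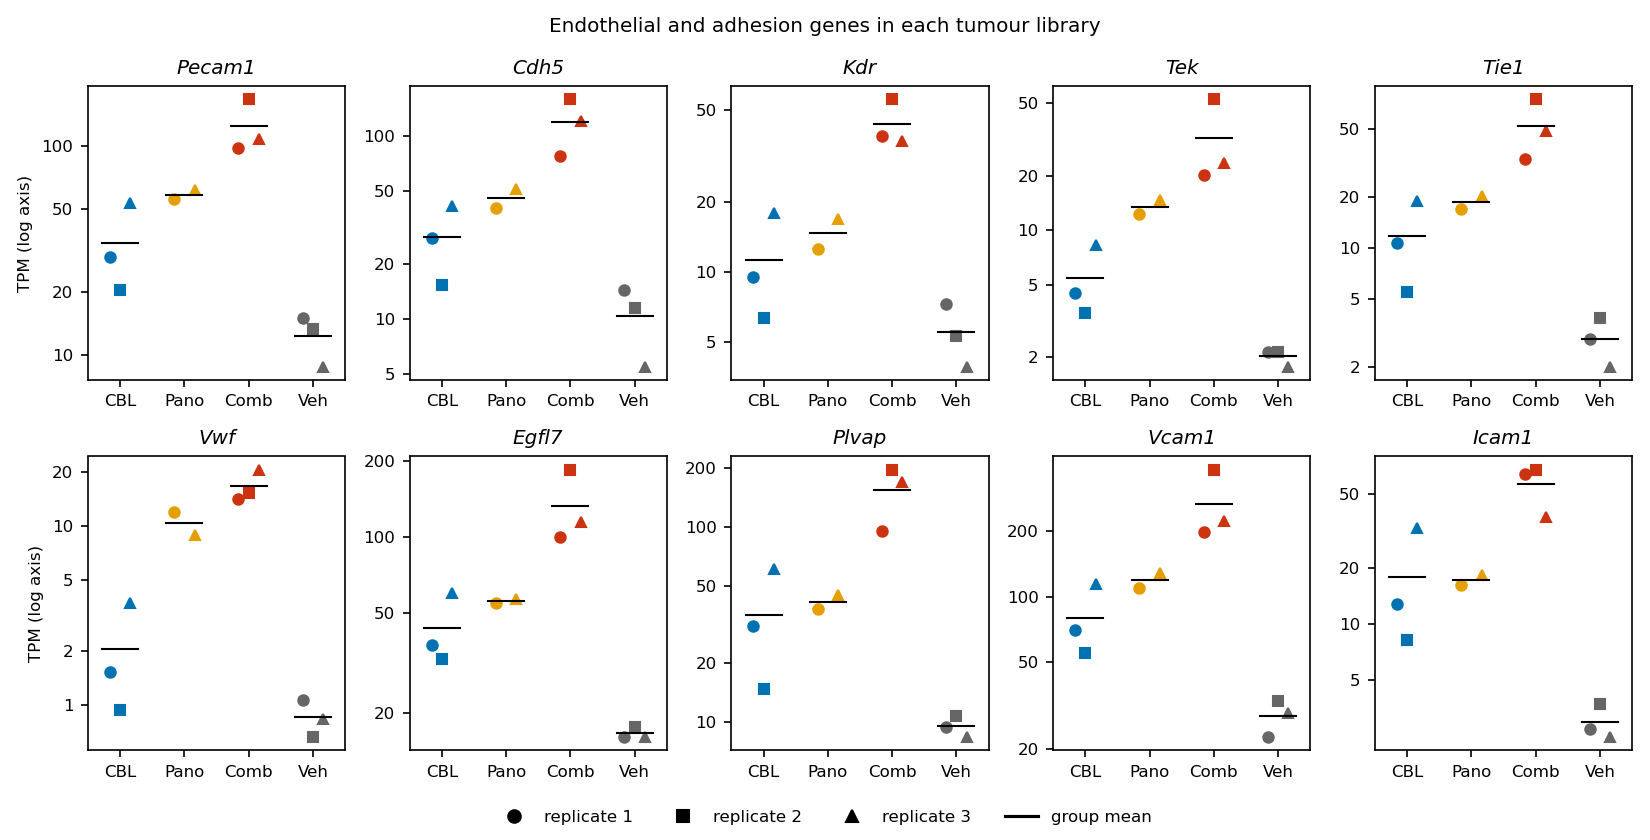
TPM of each gene (log axis) in each of the 11 tumour libraries, with symbols for the replicate number and a bar for the group mean. Every combination library lies above every vehicle library for all 10 genes; the highest library is Combination replicate 2 for 9 of them, and CBL0137 replicate 3 is the highest of the CBL0137 libraries for all 10.

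Within every library Vcam1 had the highest TPM of the 10 and Vwf the lowest. In combination tumours Vcam1 averaged 268 ± 100.5 TPM (SD, n = 3), and its lowest library, at 199 TPM, stood above the highest of Plvap, at 196 TPM. Plvap, Egfl7, Pecam1 and Cdh5 followed with means of 154, 133, 124 and 119 TPM, whose ranges overlapped. The next neighbours were Icam1, Tie1, Kdr and Tek, at means of 56.0, 52.6, 43.5 and 32.1 TPM, again overlapping from one to the next; the lowest Cdh5 value, 77.5 TPM, lay above the highest of Icam1, 67.1 TPM. In vehicle tumours the order of means was Vcam1, Egfl7, Pecam1, Cdh5, Plvap, Kdr, Icam1, Tie1, Tek and Vwf, with Plvap at 9.56 TPM; there the ranges of Vcam1 and Egfl7, Egfl7 and Pecam1, Plvap and Kdr, Kdr and Icam1, and Tek and Vwf did not overlap. By RefSeq on GRCm38.p6, the assembly behind mm10, the gene bodies are Pecam1 at chr11:106654213-106715281, Cdh5 at chr8:104101613-104144504, Egfl7 at chr2:26581083-26592682 and Plvap at chr8:71497753-71511806. The receptors are Kdr at chr5:75932827-75979072, Tek at chr4:94739086-94874976 and Tie1 at chr4:118471191-118489849, so Tek and Tie1 share a chromosome. Vwf lies at chr6:125552948-125686679, Vcam1 at chr3:116110020-116129688 and Icam1 at chr9:21015940-21028814.

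Pecam1 encodes the junction and platelet adhesion protein CD31. It had 29.4, 20.4 and 53.2 TPM in CBL0137 tumours, 55.6 and 61.2 TPM in panobinostat tumours, 97.8, 167 and 108 TPM in combination tumours, and 15.0, 13.3 and 8.79 TPM in vehicle tumours. Neither single-drug group nor the combination overlapped the vehicle group, and the CBL0137 and panobinostat groups did not overlap each other. The log2 change from vehicle was 1.32 ± 0.33 after CBL0137 (SE; limma adjusted p = 0.0446), 2.18 ± 0.37 after panobinostat (adjusted p = 0.00164) and 3.22 ± 0.33 after the combination (adjusted p = 2.46e-05).

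Cdh5 encodes VE-cadherin, the adhesion protein of endothelial junctions. Its levels were 27.8, 15.4 and 41.4 TPM in CBL0137 tumours, 40.3 and 51.3 TPM in panobinostat tumours, 77.5, 159 and 121 TPM in combination tumours, and 14.4, 11.4 and 5.49 TPM in vehicle tumours. The lowest CBL0137 tumour was just above the highest vehicle tumour, and the combination tumours stood clear of all others. Cdh5 rose by 2.11 ± 0.45 after panobinostat (SE; limma adjusted p = 0.00501) and by 3.42 ± 0.41 after the combination (adjusted p = 5.53e-05), while its change of 1.34 ± 0.41 after CBL0137 did not pass (adjusted p = 0.0806).

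Egfl7 encodes a secreted protein that endothelial cells deposit in the vessel wall. It had 37.4, 32.9 and 60.0 TPM in CBL0137 tumours, 54.8 and 56.8 TPM in panobinostat tumours, 100.1, 184 and 115 TPM in combination tumours, and 16.1, 17.7 and 16.2 TPM in vehicle tumours. The vehicle tumours were close together, and every treated tumour exceeded them. Its change after CBL0137, 1.28 ± 0.25, had the lowest adjusted p of the 10 genes in that comparison (limma adjusted p = 0.0155), followed by changes of 1.68 ± 0.27 after panobinostat (adjusted p = 0.00144) and 2.87 ± 0.25 after the combination (adjusted p = 1.16e-05). Egfl7 carries the microRNA gene Mir126a in an intron, and the table lists Mir126a and Mir126b at 0 in all 11 libraries.

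Plvap encodes the protein of the diaphragms that span endothelial fenestrae and caveolae. It measured 31.1, 14.8 and 60.9 TPM in CBL0137 tumours, 38.1 and 44.8 TPM in panobinostat tumours, 95.9, 196 and 170.4 TPM in combination tumours, and 9.44, 10.8 and 8.40 TPM in vehicle tumours. The CBL0137 tumours spread over the whole range of the panobinostat tumours, and both groups lay between vehicle and combination. Plvap rose by 2.01 ± 0.47 after panobinostat (SE; limma adjusted p = 0.00767) and by 3.82 ± 0.42 after the combination (adjusted p = 3.81e-05), a fold of 14.1 on the TPM + 1 scale. After CBL0137 the change was 1.58 ± 0.42 (adjusted p = 0.0567).

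Kdr, Tek and Tie1 are receptor tyrosine kinases: Kdr is the main signalling receptor for VEGF-A, Tek (TIE2) binds the angiopoietins, and Tie1 is its partner without a classical ligand of its own. The RefSeq promoters of the 3 receptors (assembly GRCm38.p6) are shown because these are the receptors among the 10 genes, all of which rose after panobinostat and after the combination; each line gives the 250 bases before an annotated start, read along the gene's strand. Capitals mark CAGGAA or its reverse complement TTCCTG, letters that hold the core bound by ETS factors, the family of the endothelial regulators Erg and Fli1.
Kdr, chr5:75978456-75978705, minus strand: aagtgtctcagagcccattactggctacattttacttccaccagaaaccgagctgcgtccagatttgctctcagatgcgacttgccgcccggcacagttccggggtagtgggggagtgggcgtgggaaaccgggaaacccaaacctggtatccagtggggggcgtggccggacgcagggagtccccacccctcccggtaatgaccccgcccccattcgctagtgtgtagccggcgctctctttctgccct
Tek, chr4:94739039-94739288, plus strand: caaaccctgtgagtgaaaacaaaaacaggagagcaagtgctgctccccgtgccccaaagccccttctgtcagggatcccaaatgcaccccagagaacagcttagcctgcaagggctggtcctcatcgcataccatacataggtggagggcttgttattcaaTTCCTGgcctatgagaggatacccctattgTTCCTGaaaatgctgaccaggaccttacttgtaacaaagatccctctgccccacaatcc
Tie1, chr4:118489850-118490099, minus strand: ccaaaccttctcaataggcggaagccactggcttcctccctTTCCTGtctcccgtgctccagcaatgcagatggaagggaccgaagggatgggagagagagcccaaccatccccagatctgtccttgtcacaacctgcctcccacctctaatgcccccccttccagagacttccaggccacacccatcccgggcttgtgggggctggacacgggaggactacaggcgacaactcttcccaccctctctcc
The Tek window held the letters at bases −89 to −84 and −59 to −54 from the start, and the Tie1 window at −209 to −204, all on the reverse strand. The Kdr window held neither CAGGAA nor TTCCTG. It did hold the shorter GGAA and TTCC in other surroundings, which were not searched, so a lack of ETS sites cannot be read from this. Among windows not shown, those of Egfl7 held CAGGAA or TTCCTG at −90 to −85, −48 to −43 and −81 to −76. The same letters occur on one strand or the other in 25.7% of 32851 mouse promoter windows of this length.

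Kdr had 9.52, 6.37 and 17.9 TPM in CBL0137 tumours, 12.6 and 17.0 TPM in panobinostat tumours, 38.6, 55.5 and 36.6 TPM in combination tumours, and 7.30, 5.30 and 3.93 TPM in vehicle tumours. The CBL0137 and vehicle tumours overlapped, and the combination tumours lay above all others. Its changes were among the smallest of the 10 genes in each comparison with vehicle: 0.84 ± 0.33 after CBL0137 (SE; limma adjusted p = 0.159), 1.29 ± 0.37 after panobinostat (adjusted p = 0.0189) and 2.78 ± 0.33 after the combination (adjusted p = 5.65e-05). The panobinostat call for Kdr was lost without Panobinostat replicate 3 (adjusted p = 0.122) or without Vehicle replicate 3, and so was that of Plvap without Panobinostat replicate 3 (adjusted p = 0.0539).

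Tek measured 4.49, 3.50 and 8.30 TPM in CBL0137 tumours, 12.3 and 14.6 TPM in panobinostat tumours, 20.2, 52.6 and 23.6 TPM in combination tumours, and 2.14, 2.13 and 1.77 TPM in vehicle tumours. Combination replicate 2, the library with adrenal cortex transcripts, was the highest of the 11, and all treated tumours exceeded all vehicle tumours. Tek rose by 2.26 ± 0.39 after panobinostat (SE; limma adjusted p = 0.00189) and by 3.33 ± 0.35 after the combination (adjusted p = 2.89e-05); the change after CBL0137 was 1.03 ± 0.35 (adjusted p = 0.110).

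For Tie1 the levels were 10.7, 5.47 and 18.9 TPM in CBL0137 tumours, 17.0 and 20.3 TPM in panobinostat tumours, 33.6, 75.1 and 49.2 TPM in combination tumours, and 2.91, 3.85 and 2.00 TPM in vehicle tumours. No treated tumour reached down into the vehicle range. Tie1 rose after CBL0137 by 1.58 ± 0.40 (SE; limma adjusted p = 0.0471), after panobinostat by 2.35 ± 0.45 (adjusted p = 0.00287) and after the combination by 3.73 ± 0.40 (adjusted p = 3.11e-05).

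The ligands of these receptors did not all follow. Vegfa, the ligand of Kdr, had 36.6, 35.4 and 39.0 TPM in CBL0137 tumours, 45.8 and 36.8 TPM in panobinostat tumours, 28.8, 55.4 and 35.4 TPM in combination tumours, and 36.6, 32.1 and 27.2 TPM in vehicle tumours. CBL0137 and combination tumours overlapped vehicle tumours, and the lower panobinostat tumour was just above the highest vehicle tumour. Its log2 changes of 0.21, 0.36 and 0.27 did not pass (limma adjusted p = 0.568, 0.243 and 0.288), and Vegfb did not pass either. Vegfc, which acts through Flt4 and Kdr, rose by 1.55 after panobinostat (limma adjusted p = 0.000649) and by 1.62 after the combination (adjusted p = 3.60e-05). Angpt2, the angiopoietin that endothelial cells release when activated, had 25.6, 94.6 and 37.8 TPM in combination tumours, against 6.36, 4.78 and 2.86 TPM in vehicle tumours, a rise of 3.08 ± 0.43 (SE; limma adjusted p = 0.000155). Angpt1, the stabilising angiopoietin, rose by 1.72 ± 0.34 in the same comparison (adjusted p = 0.00128). Of 18 angiogenic ligands and co-receptors, 14 rose and none fell after the combination, 11 rose and 1 (Apln) fell after panobinostat, and 1 (Nrp1) rose after CBL0137. Without the 4 libraries with foreign transcripts, 7 rose and none fell after panobinostat and none passed after CBL0137.

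**Figure D2:**
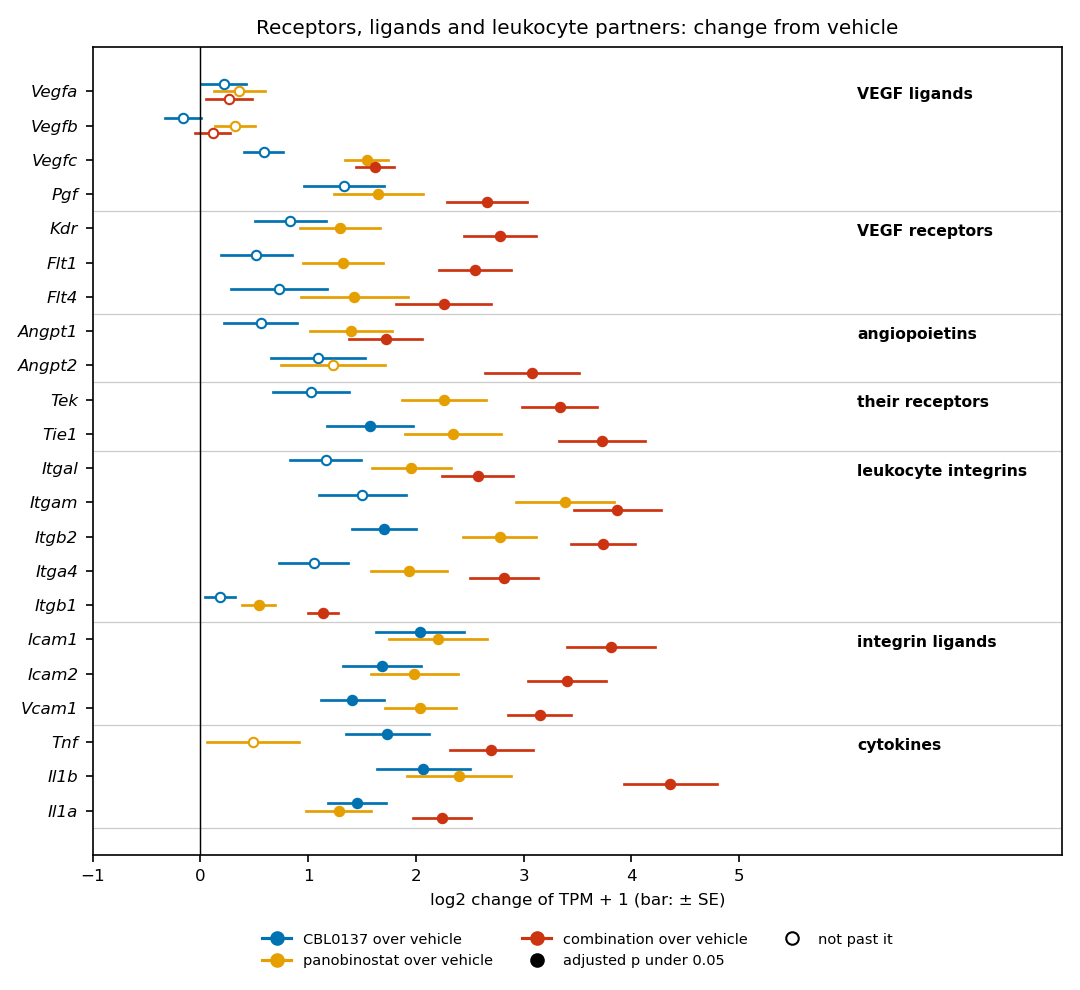
Log2 change of TPM + 1 from vehicle (bar: ± SE) for receptors, their ligands, leukocyte integrins, integrin ligands and cytokines, in CBL0137, panobinostat and combination tumours. Filled symbols passed the adjusted threshold; Vegfa and Vegfb lie near 0 in all 3 comparisons while Kdr, Tek and Tie1 lie between 2.78 and 3.73 after the combination.

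Vwf, the clotting glycoprotein stored in endothelial Weibel-Palade bodies and in platelets, separated the drugs most. It had 1.53, 0.94 and 3.72 TPM in CBL0137 tumours, 11.9 and 8.90 TPM in panobinostat tumours, 14.1, 15.3 and 20.6 TPM in combination tumours, and 1.06, 0.66 and 0.83 TPM in vehicle tumours. CBL0137 tumours overlapped vehicle tumours, whereas every panobinostat and combination tumour was above every CBL0137 tumour. The change was 0.63 ± 0.30 after CBL0137 (SE; limma adjusted p = 0.238), 2.62 ± 0.34 after panobinostat (adjusted p = 0.000661) and 3.24 ± 0.30 after the combination (adjusted p = 1.70e-05).

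In the direct comparison of CBL0137 with panobinostat, Vwf was lower in CBL0137 tumours by a log2 difference of −1.99 ± 0.34 (limma adjusted p = 0.0102). It was the only one of the 10 genes called there, in a comparison in which 12.1% of all genes were lower after CBL0137. Tek came next at −1.24 (adjusted p = 0.0535), and Icam1 had the smallest difference, −0.16, with a 95% interval of −1.18 to 0.85. Vwf lost its call without Panobinostat replicate 3 (adjusted p = 0.0623) and when only these 2 groups were fitted, while without the 4 libraries with foreign transcripts 4 genes were called (Tek, Vwf, Egfl7 and Vcam1).

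Vwf is also made by megakaryocytes, so platelet lineage genes were read beside it. Pf4, a platelet chemokine also made by some macrophages, had 17.3, 64.9 and 50.2 TPM in CBL0137 tumours, 102 and 243 TPM in panobinostat tumours, 329.5, 219 and 194 TPM in combination tumours, and 13.6, 4.77 and 4.76 TPM in vehicle tumours. Itga2b, which defines the platelet lineage, was at 1.89 TPM or less in every library, and its change did not pass in any comparison with vehicle. The 9 platelet and megakaryocyte genes summed to between 20.1 and 70.4 TPM in CBL0137, 117 and 264 TPM in panobinostat, 220.0 and 358 TPM in combination, and 7.38 and 18.9 TPM in vehicle tumours, and Pf4 made up most of each sum. Of the 6 that could be tested, 1 (Pf4) rose after CBL0137, 2 (Pf4 and Ppbp) after panobinostat and 4 (Pf4, Ppbp, Treml1 and Clec1b) after the combination; without the 4 libraries with foreign transcripts these counts were 0, 2 and 3. The part of these genes' cells in the Vwf levels was not tested. Of 6 other genes of von Willebrand factor storage, binding and cleavage that could be tested, 4 rose and Rab27a, a GTPase of granule release, fell after the combination; 2 rose after panobinostat (1 without the 4 libraries), and none passed after CBL0137.

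Vcam1 encodes the ligand of the leukocyte integrin α4β1. It had 70.5, 55.2 and 114 TPM in CBL0137 tumours, 110.0 and 128 TPM in panobinostat tumours, 199, 383 and 222 TPM in combination tumours, and 22.7, 33.3 and 29.3 TPM in vehicle tumours. All treated tumours were above all vehicle tumours, and the combination tumours above every other. Vcam1 rose by 1.41 ± 0.29 after CBL0137 (SE; limma adjusted p = 0.0230), by 2.04 ± 0.33 after panobinostat (adjusted p = 0.00139) and by 3.15 ± 0.29 after the combination (adjusted p = 1.67e-05).

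Icam1 encodes the ligand of the leukocyte integrins LFA-1 and Mac-1 and is a textbook target of NF-κB and interferon signalling. Its levels were 12.8, 8.24 and 32.5 TPM in CBL0137 tumours, 16.1 and 18.4 TPM in panobinostat tumours, 63.4, 67.1 and 37.6 TPM in combination tumours, and 2.74, 3.73 and 2.47 TPM in vehicle tumours. The CBL0137 tumours spanned the panobinostat tumours, with CBL0137 replicate 3 near the lowest combination tumour. The change from vehicle was 2.04 ± 0.41 after CBL0137 (SE; limma adjusted p = 0.0187), the largest of the 10 genes there, 2.21 ± 0.45 after panobinostat (adjusted p = 0.00415) and 3.81 ± 0.41 after the combination (adjusted p = 3.07e-05). Without CBL0137 replicate 3 the CBL0137 change was 1.52 (adjusted p = 0.0169), and its call was lost without Vehicle replicate 1 or 3 (adjusted p = 0.0663 and 0.0802).

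The RefSeq promoter of Icam1 (assembly GRCm38.p6) is shown because it was the only one of the windows matched for 5 of the 10 genes to hold a κB-like sequence.
Icam1, chr9:21015690-21015939, plus strand: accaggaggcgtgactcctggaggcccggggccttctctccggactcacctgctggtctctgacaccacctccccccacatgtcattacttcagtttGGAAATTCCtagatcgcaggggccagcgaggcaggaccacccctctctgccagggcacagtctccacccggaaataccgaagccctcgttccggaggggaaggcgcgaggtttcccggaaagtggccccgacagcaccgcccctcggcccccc
Capitals mark GGAAATTCC, a match to the searched pattern GGANNTTCC at bases −153 to −145 from the start. This pattern occurs on either strand in 3.59% of the 32851 windows of the same length. A longer classical κB pattern and an interferon-stimulated response element pattern, present in 1.41% and 2.98% of windows, had no match in the Kdr, Tek, Tie1, Egfl7 or Icam1 windows.

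Genes of pathways known to induce adhesion molecules were read beside them, and their part in the levels of Vcam1 and Icam1 was not tested. Of 15 tested genes for NF-κB, its cytokine inputs and interferon-responsive factors, 10 rose after CBL0137, 12 after panobinostat and 15 after the combination; without the 4 libraries with foreign transcripts these counts were 3, 11 and 15. Il1b, an inflammatory cytokine, had 46.9, 78.1 and 42.8 TPM in combination tumours, against 2.05, 2.34 and 0.87 TPM in vehicle tumours. Tnf, another, rose after CBL0137 by 1.73 ± 0.38 (SE; limma adjusted p = 0.0287) and after the combination by 2.70 ± 0.38 (adjusted p = 0.000162), and did not pass after panobinostat (0.49, adjusted p = 0.387). Irf1, an interferon-induced transcription factor, rose by 2.67 after CBL0137 (limma adjusted p = 0.00405), by 1.88 after panobinostat (adjusted p = 0.00673) and by 4.74 after the combination (adjusted p = 9.81e-06). Nfkbia, the NF-κB inhibitor that NF-κB itself induces, rose by 0.80, 1.00 and 1.73 in the same order. Ifng was at 1.95 TPM or less in every library and was not tested.

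Partners of the adhesion molecules on leukocytes rose as well. Itgb2, the β chain of LFA-1 and Mac-1, rose by 1.70 ± 0.30 after CBL0137 (SE; limma adjusted p = 0.0106), by 2.78 ± 0.34 after panobinostat (adjusted p = 0.000563) and by 3.74 ± 0.30 after the combination (adjusted p = 9.36e-06). Itga4, the α4 chain that pairs for VCAM1, had 29.4, 29.3 and 18.2 TPM in combination tumours, against 3.76, 2.44 and 2.08 TPM in vehicle tumours. All 10 tested leukocyte-side genes rose after panobinostat and after the combination, and 4 after CBL0137; without the 4 libraries 8 rose after panobinostat and 2 after CBL0137. On the endothelial side, apart from the 10 genes, 12 of 14 rose after the combination, 8 after panobinostat and 2 (Icam2 and Cd47) after CBL0137, and without the 4 libraries 11, 7 and 0 of the 13 genes left to test. The selectins, which start leukocyte rolling, were at low levels: Selp had 10.3, 9.22 and 12.0 TPM in combination tumours, against 0.42, 0.49 and 0.10 TPM in vehicle tumours, and Sele 1.84, 1.60 and 1.20 TPM, against 0.12, 0.22 and 0 TPM.

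**Figure D3:**
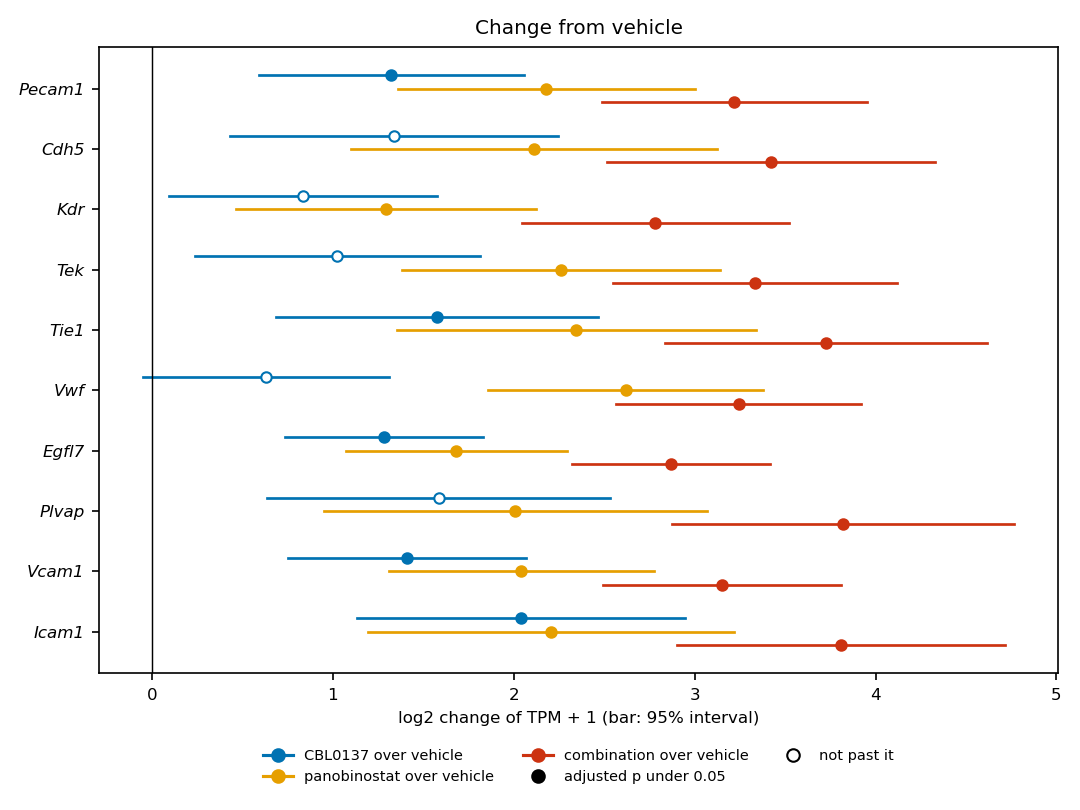
Log2 change of TPM + 1 from vehicle for each gene in CBL0137, panobinostat and combination tumours (point: limma estimate; bar: 95% interval). Filled points passed the adjusted threshold: 5 for CBL0137, 10 for panobinostat and 10 for the combination.

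A panel of 30 other endothelial genes, among them Cldn5, Emcn, Esam, Eng and Erg, moved with the 10. Of these 30, 4 rose after CBL0137, 28 after panobinostat and 29 after the combination, with median changes of 0.97, 1.84 and 2.82. The 4 after CBL0137 were Fli1, Ecscr, Icam2 and Cd34, and none of Cldn5, Emcn, Esam, Eng and Erg passed there. Without the 4 libraries with foreign transcripts none of the 30 passed after CBL0137, 24 rose after panobinostat and 29 after the combination. Arhgef15, an endothelial exchange factor, was the panel gene not called after the combination. The 10 genes were next compared with vessel markers in general. Each library's mean log2(TPM + 1) of the panel was subtracted from every gene, and the fit was repeated. In vehicle tumours 24 of the 30 panel genes averaged 1 TPM or more, and Sox17, for example, had 0.41, 0.32 and 0.29 TPM. Because TPM + 1 understates change at low TPM, the panel mean can understate the panel's rise. A gene at higher TPM can therefore stand above the panel without a larger fold change.

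Measured against the panel, 4 of the 10 genes were higher in combination than in vehicle tumours: Plvap by 1.12 ± 0.34 (SE; limma adjusted p = 0.00369), Tie1 by 1.02 ± 0.32 (adjusted p = 0.00484), Icam1 by 1.11 ± 0.35 (adjusted p = 0.00505) and Cdh5 by 0.72 ± 0.32 (adjusted p = 0.0410). On this scale 3.30% of all genes were higher. The panel mean itself was 4.33, 5.14 and 4.55 in combination libraries, against 2.24, 2.02 and 1.65 in vehicle libraries. Its subtraction lowers every gene that rose less than the panel, so this share is no background for endothelial genes. The same holds for the shares given below for CBL0137 and panobinostat. Adjustment changed little here: for Cdh5 the limma p was 0.0360 before and 0.0410 after. Plvap stood 2.27, 2.48 and 2.87 above the panel mean in combination libraries, against 1.14, 1.55 and 1.58 in vehicle libraries, with no overlap. Tie1 stood 0.78, 1.11 and 1.10 above it in combination libraries, against −0.27, 0.26 and −0.07 in vehicle libraries. Icam1 was 1.68, 0.95 and 0.72 above it in combination libraries, against −0.34, 0.22 and 0.14 in vehicle libraries. The calls for Tie1 and Icam1 held in all 23 alternative fits and that for Plvap in 22, whereas Cdh5 was called in 4 of 11 fits that left out 1 library.

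After CBL0137, Icam1 was the only one of the 10 above the panel, by 1.10 ± 0.35 (limma adjusted p = 0.0187; 2.05% of all genes were higher), and this call was lost without CBL0137 replicate 3 (adjusted p = 0.0979), Vehicle replicate 1 (0.0596) or Vehicle replicate 3 (0.0954). After panobinostat none of the 10 passed (1 did without the 4 libraries), and Vwf had the largest value, 0.88 ± 0.40 (limma adjusted p = 0.0501; 2.18% of all genes were higher). Kdr did not pass in any of the 3 comparisons, at −0.11, −0.44 and 0.08, with 95% intervals that reached from −1.15 to 0.72. After panobinostat it had the lowest value of the 10, standing 0.16 and 0.36 above the panel mean in panobinostat libraries, against 0.81, 0.64 and 0.65 in vehicle libraries, with no overlap. Egfl7 had changes of −0.05 to 0.34 on this scale, none of which passed.

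**Figure D4:**
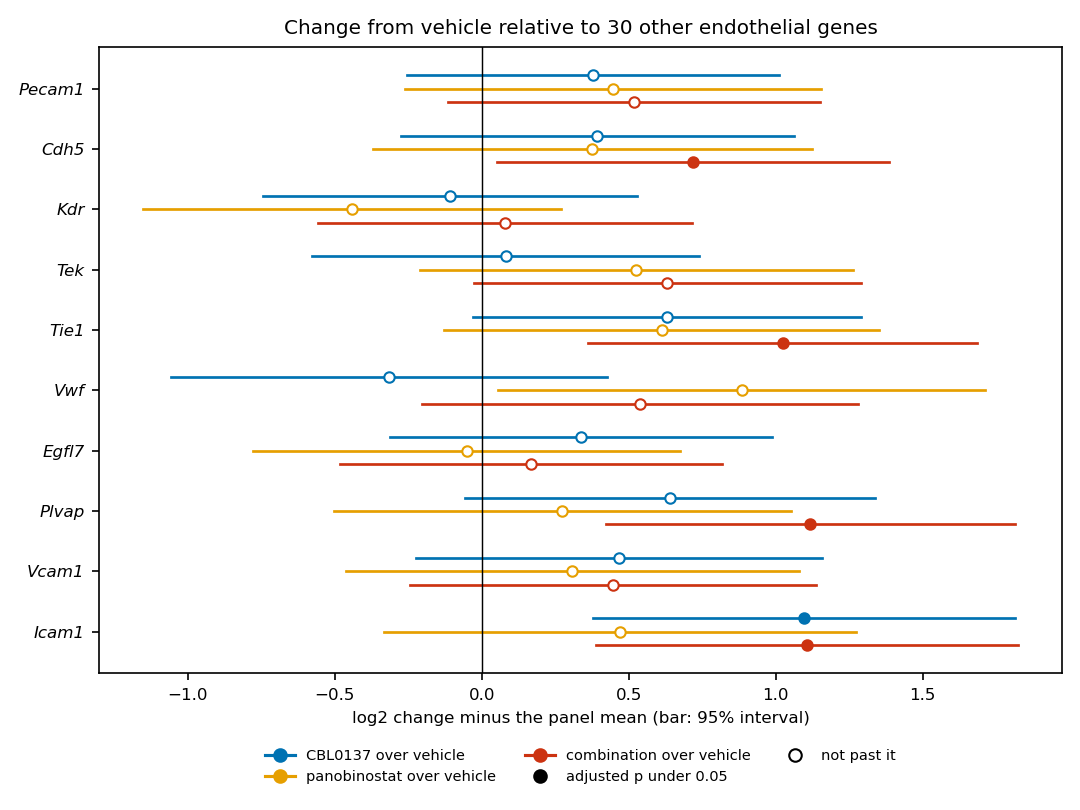
Change from vehicle of each gene after subtraction of the mean of 30 other endothelial genes in the same library (point: limma estimate on the log2 scale; bar: 95% interval). Filled points passed the adjusted threshold: Cdh5, Tie1, Plvap and Icam1 for the combination, Icam1 for CBL0137, and no gene for panobinostat.

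The combination was then set against each drug given alone. Against CBL0137 all 10 genes rose, from 1.59 (Egfl7) to 2.61 (Vwf) on the log2 scale, with limma adjusted p between 0.000282 and 0.00434; 33.2% of all genes rose. The same 10 were called in every alternative fit, including that without the 4 libraries with foreign transcripts. Against panobinostat 3 genes rose: Kdr by 1.49 ± 0.37 (SE; limma adjusted p = 0.0373), Egfl7 by 1.19 ± 0.27 (adjusted p = 0.0314) and Plvap by 1.81 ± 0.47 (adjusted p = 0.0418), where 6.24% of all genes rose. All 3 combination libraries exceeded both panobinostat libraries for all 10 genes, an arrangement that 25.1% of all genes tested showed.

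The calls against panobinostat depended on single libraries. None remained without Combination replicate 2, either panobinostat library, Vehicle replicate 2 or Vehicle replicate 3, 1 remained without CBL0137 replicate 1 or Combination replicate 1, and 7 were called without CBL0137 replicate 3. Icam1, at 1.60 ± 0.45, lay close to the threshold (limma adjusted p = 0.0509), and Vwf had the smallest change, 0.62, with a 95% interval of −0.14 to 1.38.

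Departure from additivity on the log2 scale was tested as an interaction of both drugs. None of the 10 genes and none of the 15497 genes passed (limma; 0 of 10 and 1631 genes, or 10.5%, at an unadjusted p under 0.05; no other tool was run). The estimates ran from −0.44 for Icam1 to 0.65 for Kdr. Their 95% intervals were wide, −1.80 to 0.92 for Icam1 and −0.46 to 1.76 for Kdr, so a departure of 1 log2 unit lay inside the interval for 9 of the 10 genes in at least 1 direction.

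**Figure D5:**
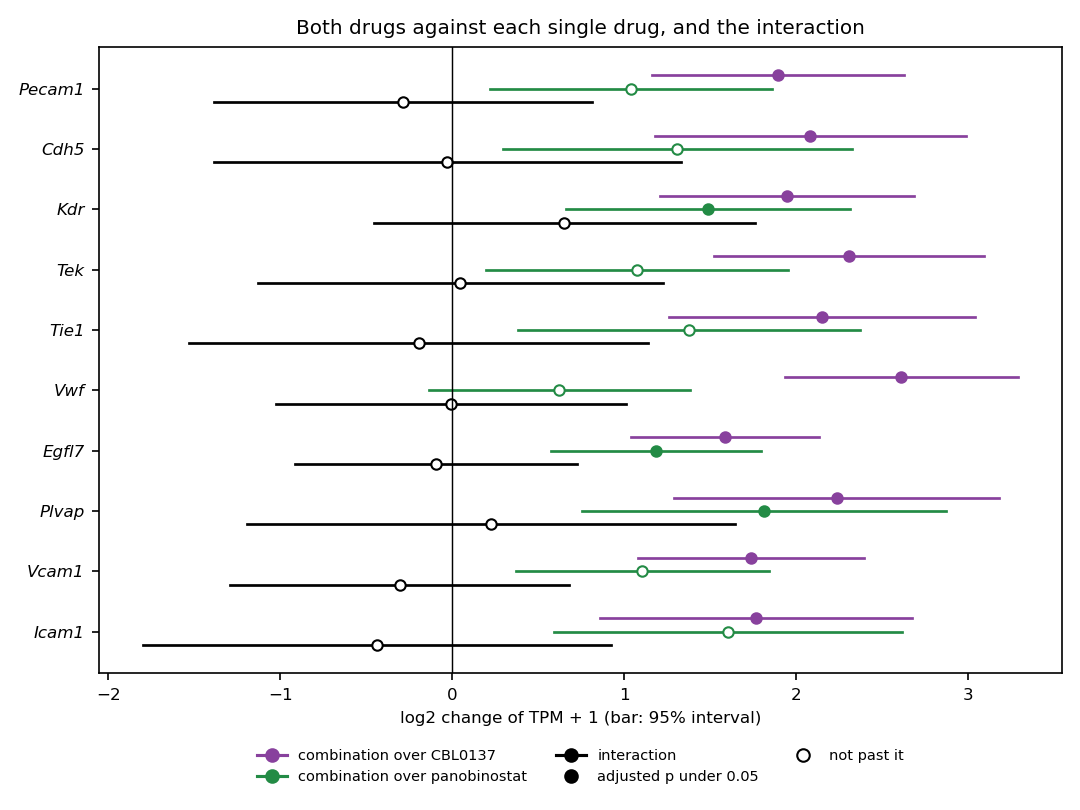
Log2 change of TPM + 1 in combination tumours over CBL0137 tumours and over panobinostat tumours, and the interaction of both drugs (point: limma estimate; bar: 95% interval). All 10 genes passed over CBL0137, Kdr, Egfl7 and Plvap passed over panobinostat, and no interaction passed.

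The CBL0137 calls were the least stable of the comparisons with vehicle. They numbered 0 without Vehicle replicate 1 or 3, 1 without Vehicle replicate 2, 2 without CBL0137 replicate 3, and 3 without CBL0137 replicate 1, either panobinostat library or Combination replicate 3. CBL0137 replicate 2 was the lowest and replicate 3 the highest of its group for all 10 genes. In CBL0137 tumours 8 of the 10 genes did not overlap vehicle, all but Kdr and Vwf, where 18.6% of all genes tested were non-overlapping and higher.

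The genes with the profile most like each of the 10 were found by the root mean square difference of centred log2(TPM + 1) over the 11 libraries. For Cdh5 the nearest was Esam, another endothelial junction gene, at 0.10, and for Pecam1 it was Mmrn2, an endothelial matrix gene, at 0.14. Tek was nearest to Adgrl4, an endothelial adhesion receptor, at 0.13, with Ephb4, the venous ephrin receptor, next. Tie1 and Plvap were each among the 2 nearest genes of the other, at 0.20. For Vcam1 the nearest were Cd38 and Acp5, and for Icam1 the MHC class I gene H2-D1 and the phagocyte oxidase gene Cybb, all between 0.16 and 0.17. Neighbours outside the endothelial panel were also found for other genes of the 10. They were Abi3 for Pecam1 at 0.14, Adcy4 and Arhgap27 for Kdr at 0.14, and Slc15a3 for Plvap at 0.27. The 2 nearest to Egfl7 were Pld3 at 0.13 and Tlr2 at 0.16. For Vwf, the collagen gene Col16a1 was among the 2 nearest, at 0.21. The median over all genes was between 1.11 and 1.50.

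Markers of the other cells of the tumour moved with the endothelial genes. Of 14 macrophage and monocyte genes, 9 rose after CBL0137 (8 without the 4 libraries), 14 after panobinostat and 14 after the combination, and their summed level was 1633 to 3317 TPM in CBL0137, 3937 to 4945 TPM in panobinostat, 6533 to 9363 TPM in combination, and 767 to 936 TPM in vehicle tumours. Of 13 pericyte and smooth muscle genes, 2 (none without the 4 libraries), 12 and 13 rose in the same order, with sums of 248 to 484, 698 to 1163, 1016 to 1935, and 102 to 185 TPM in vehicle tumours. Pdgfrb, the pericyte receptor, had 78.0, 167 and 110 TPM in combination tumours, against 8.54, 5.32 and 4.34 TPM in vehicle tumours. Of 10 fibroblast genes, 8 rose and 2 (Pdpn and Fbln1) fell after the combination, 8 rose after panobinostat, and 1 (Thy1; none without the 4 libraries) rose after CBL0137. Fbln1, a matrix glycoprotein gene, had 28.3, 9.41 and 19.3 TPM in combination tumours, against 39.9, 29.8 and 31.6 TPM in vehicle tumours. The summed level of the 10, most of it from Col3a1, Postn and Col1a2, was 3322 to 5116 TPM in combination and 289 to 476 TPM in vehicle tumours, and that of 6 fat cell genes 2137 to 5985 TPM in combination and 194 to 483 TPM in vehicle tumours. Of 12 sympathoadrenal tumour genes, 6 fell and 2 rose after the combination (6 and 0 without the 4 libraries). The share of these cells in the levels of Vcam1, Icam1 and Pecam1 was not tested.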

How the data were processed

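Flash-frozen tumours were used for total RNA sequencing with ribosomal RNA depletion (stranded libraries), per the labels' protocols. Per the submitters' processing notes the tools were STAR, SAMtools and RSEM with the mm10 build, versions not given in the sources used here. The deposited table holds the authors' gene-level TPM with 2 decimals for 24411 symbols and 11 libraries, so depth is unknown and no counting interval can be given. 27 symbols that a spreadsheet had turned into dates were renamed. Genes at 1 TPM or more in at least 2 libraries (15497) were fitted as log2(TPM + 1) in limma 3.58.1 (R 4.3.3) with 4 group means, a mean-variance trend and 7 residual degrees of freedom. Adjustment was by Benjamini-Hochberg over all 15497. Tables and plots were made in Python with pandas and matplotlib. The procedure was tested on simulated data for 15497 genes before use. Of genes changed by 1 and by 2 log2 units, it recovered 68.7% and 100% for the combination against vehicle and 62.7% and 92.4% for the combination against panobinostat. It recovered 52.2% and 93.9% for panobinostat against vehicle relative to the panel, and 32.8% and 80.3% for the interaction. The changed genes were drawn only from vehicle levels above those of Kdr, Icam1, Tie1, Tek and Vwf, so recovery at the levels of these genes was not measured. In the simulation relative to the panel every other gene followed the panel, unlike in these data, so its recovery does not carry over to them.

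Groups came from the sample titles, and replicate numbers were not taken to pair tumours across groups in the main fit. Members, lists and tests were chosen with earlier results of these data known. Named besides the 10 genes were a fixed set of ligands, partners and markers, from each list the 3 genes with the smallest adjusted p-values in combination and in CBL0137 tumours, where room allowed, and genes from the 2 nearest to each member, of which 1 near Vwf is not reported here. An exact permutation test cannot give p under 0.1 with 3 tumours against 3, or under 0.2 with 3 against 2, so single-gene p-values rest on the model. Promoter windows came from RefSeq (GRCm38.p6), matched by symbol for 5 of the 10 genes (7 starts), and were searched on both strands for 2 κB patterns, an interferon response pattern, CAGGAA and TATAAA. Alternatives covered the pseudocount, the filter, scaling, a replicate block, the trend, array weights, the groups fitted and leaving out libraries.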

Additional observations from a re-analysis of the deposited data

How the results depend on the processing

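All 10 genes passed for the combination against vehicle in each of 23 alternative fits (230 of 230 values), and all 10 likewise against CBL0137; panobinostat against vehicle gave 8 to 10 when 1 library was left out and 9 or 10 otherwise. For CBL0137 against vehicle (5 genes) the count was 2 with a pseudocount of 5, 3 with no filter, 2 with the replicate block, 3 without the trend, 9 with array weights, 2 without the 4 libraries with foreign transcripts, 3 with only the groups compared, and 0 to 7 when 1 library was left out. For the combination against panobinostat (3 genes) it was 5 with a pseudocount of 5 or a filter of 5 TPM, 1 with no filter, 6 with quantile normalization, 0 with the replicate block, 1 without the 4 libraries, and 0 to 7 when 1 library was left out. For CBL0137 against panobinostat (1 gene) it was 2 with a pseudocount of 0.1 or after rescaling without small structural RNA and histone genes, 4 with array weights, 4 without the 4 libraries, 0 with only the groups compared, and 0 to 3 when 1 library was left out. Relative to the panel, the counts were 3 (pseudocount 5), 0 (quantile), 7 (array weights) and 0 to 3 (1 library left out) for CBL0137 in place of 1; 7 (pseudocount 5), 7 (array weights) and 3 to 4 for the combination in place of 4; and, for panobinostat in place of 0, 1 with a pseudocount of 0.1, after rescaling, with no trend, without the 4 libraries or with only the groups compared, 3 with a pseudocount of 5, quantile normalization or array weights, and 0 to 1 when 1 library was left out. The interaction count was 0 throughout. The cause of these shifts was not tested. Fits without libraries have fewer samples, and the share of all genes called in each alternative fit is not given here.

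Same-numbered tumours gave no sign of deviating together (correlations of −0.26 to 0.19 over 15 pairs, against −0.25 to 0.30 over 30 pairs with unlike numbers). Deviations were taken from means of 2 or 3 tumours, which ties the values to one another, so this check is weak. The block with its 2 and 0 calls above uses numbers only. Where a panobinostat library was left out, the lone remaining one was assumed to vary like the other groups. Array weights did not fully converge and gave Vehicle replicate 3 a weight of 9.01. Quantile normalization moved the median of all genes to −0.18 for panobinostat and −0.26 for the combination, against 0.10 and 0.08.

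55 single-gene values of 2300 changed sign, 36 of them interactions, and none of the 55 passed the threshold. For the interaction these were Tek at −0.18 (pseudocount 0.1), −0.13 (rescaled), −0.0245 (replicate block) and −0.12 (array weights); Cdh5 at 0.17, Tie1 at 0.22, Vwf at 0.23, Egfl7 at 0.0146 and Icam1 at 0.0434 (pseudocount 5); Tie1 at 0.20 and Vwf at 0.39 (quantile); Vwf at 0.13 (replicate block) and 0.17 (array weights); and Cdh5 at 0.12 and Vwf at 0.29 (without the 4 libraries). Leaving out 1 library gave interactions of −0.39 to 0.34 for Cdh5, −0.35 to 0.16 for Egfl7, −0.84 to 0.0860 for Icam1, −0.59 to 0.0772 for Pecam1, −0.27 to 0.71 for Plvap, −0.36 to 0.35 for Tek, −0.61 to 0.20 for Tie1 and −0.28 to 0.36 for Vwf. For CBL0137 against panobinostat, Icam1 was 0.0381 after quantile normalization and −0.69 to 0.24 with 1 library left out, and Plvap −0.91 to 0.0752. Relative to the panel, panobinostat values were −0.00027 for Plvap and −0.0301 for Vcam1 (pseudocount 0.1), and 0.36 (pseudocount 5), 0.54 (quantile), 0.0402 (without the 4 libraries) and −0.21 to 0.0884 (1 library left out) for Egfl7. Combination values were −0.17 for Kdr and −0.22 for Egfl7 (pseudocount 0.1), −0.0282 for Vwf (pseudocount 5), −0.0087 (filter of 5 TPM) and −0.0183 to 0.14 (1 library left out) for Kdr. CBL0137 values were 0.0055 for Kdr and −0.0288 for Tek (pseudocount 5), and −0.0133 (quantile) and −0.0235 to 0.18 (1 library left out) for Tek.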

Other observations

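Blood-related transcripts differed among the libraries. The 7 erythroid genes summed to 1395 to 14984 TPM in CBL0137 tumours, 9325 to 14893 TPM in panobinostat tumours, 9445 to 15190 TPM in combination tumours, and 738 to 5697 TPM in vehicle tumours. CBL0137 replicate 2, the lowest of its group for all 10 endothelial and adhesion genes, had the most haemoglobin transcripts of that group, with 4772 TPM of Hba-a1 against 804 and 372 TPM in CBL0137 replicates 1 and 3. Ly6c2, a marker of inflammatory monocytes, had 540.5, 232 and 258 TPM in combination tumours, against 0.60, 2.17 and 0 TPM in vehicle tumours. Lymphatic genes did not move as one: Prox1 and Pdpn fell by 1.62 and 1.25 on the log2 scale after the combination (limma adjusted p = 0.0011 and 0.0017), while Lyve1, Flt4 and Stab1 rose.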
